A study of Mus musculus with 6 samples.

Results

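The 39 genes described here encode the route of glucose use in the mouse retina, from glucose uptake through glycolysis and lactate transport to the entry of pyruvate into the tricarboxylic acid (TCA) cycle. They were listed by function, except that *Gckr*, which encodes a regulator of glucose phosphorylation, was chosen by its large increase in the comparison reported here, so its values are a description and carry no test. The whole list was drawn up with earlier results of these data known. All 39 were among the 11339 genes of the deposited RNA sequencing table. The table holds 6 libraries of retina at postnatal day 14 (P14), each made from 2 retinas. In 3 of them the genotype was MLL1 fl/fl with Chx10-Cre (*Mll1KO*), and the other 3 were wild type (WT), with C57Bl6/J as the strain of both groups. Chx10-Cre drives recombination in progenitors of the retina. The paper compares RNA sequencing with C57Bl/6J samples, while its other comparisons of knockout retina mostly used littermates without Cre. Wild-type mice carry no Cre and no floxed allele is named for them. The presence of Cre, the floxed alleles, any difference of litter and the deletion of *Mll1* therefore cannot be told apart. The comparison asks which transcripts differ in a retina that developed after deletion of *Mll1*, which encodes MLL1, an enzyme that methylates lysine 4 of histone H3. The paper reports that some unrecombined *Mll1* RNA remained in *Mll1KO* retina at P14.

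Glycolysis turns glucose into pyruvate in the cytosol, and lactate dehydrogenase then converts pyruvate to lactate or back. Pyruvate dehydrogenase feeds the remaining carbon into the mitochondrial TCA cycle. The retina is known for making lactate from glucose even when oxygen is plentiful, a trait ascribed largely to photoreceptors, while lactate passes between photoreceptors, Müller glia and the pigment epithelium through monocarboxylate transporters.

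Levels are given in the authors' unit, RPKM, which is reads scaled to gene length in kilobases and to the library total, so levels of different genes can be compared per length. The library totals recovered from those values were 23836033, 19777205 and 19323512 reads for the WT replicates. For the *Mll1KO* replicates they came to 23348923, 19855963 and 17961097 reads. Among the 39 genes, the lowest count in any library was 315 reads, for *Pgk1*. Fold changes are differences of group means of log2(RPKM + 1), *Mll1KO* minus WT, which understates the change of genes with low RPKM. A gene is called higher or lower where its p-value from limma, adjusted over all 11339 genes, was under 0.05. These p-values measure the spread between the samples of this study. Values per sample are listed in the order of replicates a, b and c.

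*Kmt2a*, the gene that encodes MLL1, stood at 36.1, 36.9 and 34.6 RPKM in WT and at 22.9, 20.4 and 22.3 RPKM in *Mll1KO*. Every *Mll1KO* library lay below every WT library, with a log2 fold change of -0.69 (SE 0.050, limma adjusted p = 2.8e-05). The floxed stretch covers exons 3 to 4, so RNA from outside it still counts towards the gene. Retinal identity was checked with marker genes. The 12 rod genes summed to 16176, 15271 and 15744 RPKM in WT and 19714, 20031 and 19429 RPKM in *Mll1KO*. The defining pigment epithelium markers *Rpe65* and *Best1* were not in the table.

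On the authors' scale, transcripts for glycolysis and lactate handling were mostly higher in *Mll1KO* retina and those for pyruvate entry and the TCA cycle stood close to their WT levels, while scaling libraries to rod genes reverses the direction of the first and puts 16 of the 17 genes of the second among those called lower, as it does 85.3% of all genes. Of the 21 glycolysis and lactate genes other than *Gckr*, 12 were called higher by limma and 0 lower, with 15 higher and 0 lower at an unadjusted p under 0.05 and 0 lower by limma-voom. The background over all 11339 genes was 8.81% called higher, 14.5% called lower and 23.3% called in either direction. It was 13.6% higher and 23.3% lower at an unadjusted p under 0.05, and 9.53% and 16.1% by limma-voom. The median log2 fold change of the 21 genes was 0.21, against -0.030 for all genes. Of the 17 pyruvate entry and TCA cycle genes, 1 was called higher, *Mdh1*, with a median of -0.0022 over the 17, and *Sucla2* joined it with TMM, RLE or upper-quartile scaling. The difference between the gene groups was not tested. In bulk tissue, fewer cells of a type and less RNA per cell cannot be told apart.

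Among the 38 genes without *Gckr*, 13 were called higher, 0 were called lower and 25 were not called. At an unadjusted limma p under 0.05 the counts were 17 higher and 2 lower (13.6% and 23.3% of all genes), and limma-voom on recovered reads called 0 lower (16.1% of all genes). With TMM, RLE or upper-quartile scaling 15 were called higher, *Gpi1* and *Sucla2* being the additions, and 0 lower. In the same order, 11.1, 11.3 and 11.2% of all genes were called higher and 10.3, 9.93 and 10.1% lower. With scaling to rod genes 1 was called higher and 26 lower, against 1.78% and 85.3% of all genes. WT and *Mll1KO* libraries did not overlap for 16 of the 38 in the higher direction and 2 in the lower direction, against 14.6% and 26.5% of all genes. Mean levels were higher in *Mll1KO* for 29 of the 38. Nothing is read from these shares about the list as a whole.

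These directions depend on how libraries are scaled to each other. Scaling every library to the same sum over the rod genes moved the median of all genes from -0.030 to -0.32. On that scale the median of the 21 glycolysis and lactate genes was -0.11, so its sign reversed. All 21 lay above the median of all genes on either scale, by 0.21 in the median on the rod scale and 0.25 on the authors' scale. Such scaling moves all genes nearly alike, so their place relative to that median is no check on the scaling. The 17 pyruvate entry and TCA cycle genes had a median of -0.31 on the rod scale, and 9 of them lay above the median of all genes, while all but *Mdh1* were called lower, 16 in all, against 85.3% of all genes. Of the 21, 10 were called lower there. They were *Pfkp*, *Gapdh* and *Bsg*, which were called higher on the authors' scale, and *Slc2a1*, *Hk1*, *Gpi1*, *Eno1*, *Pkm*, *Ldha* and *Ldhb*, which were not called on it. On the authors' scale 999 genes were called higher and 1644 lower over the whole table. TMM scaling made this 1257 higher and 1163 lower, which raised the share of higher among the calls from 37.8% to 51.9%, and RLE and upper-quartile scaling gave 53.1% (1276 higher and 1126 lower) and 52.7% (1272 higher and 1140 lower). Scaling to rod genes gave 202 higher and 9672 lower.

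**Figure D1:**
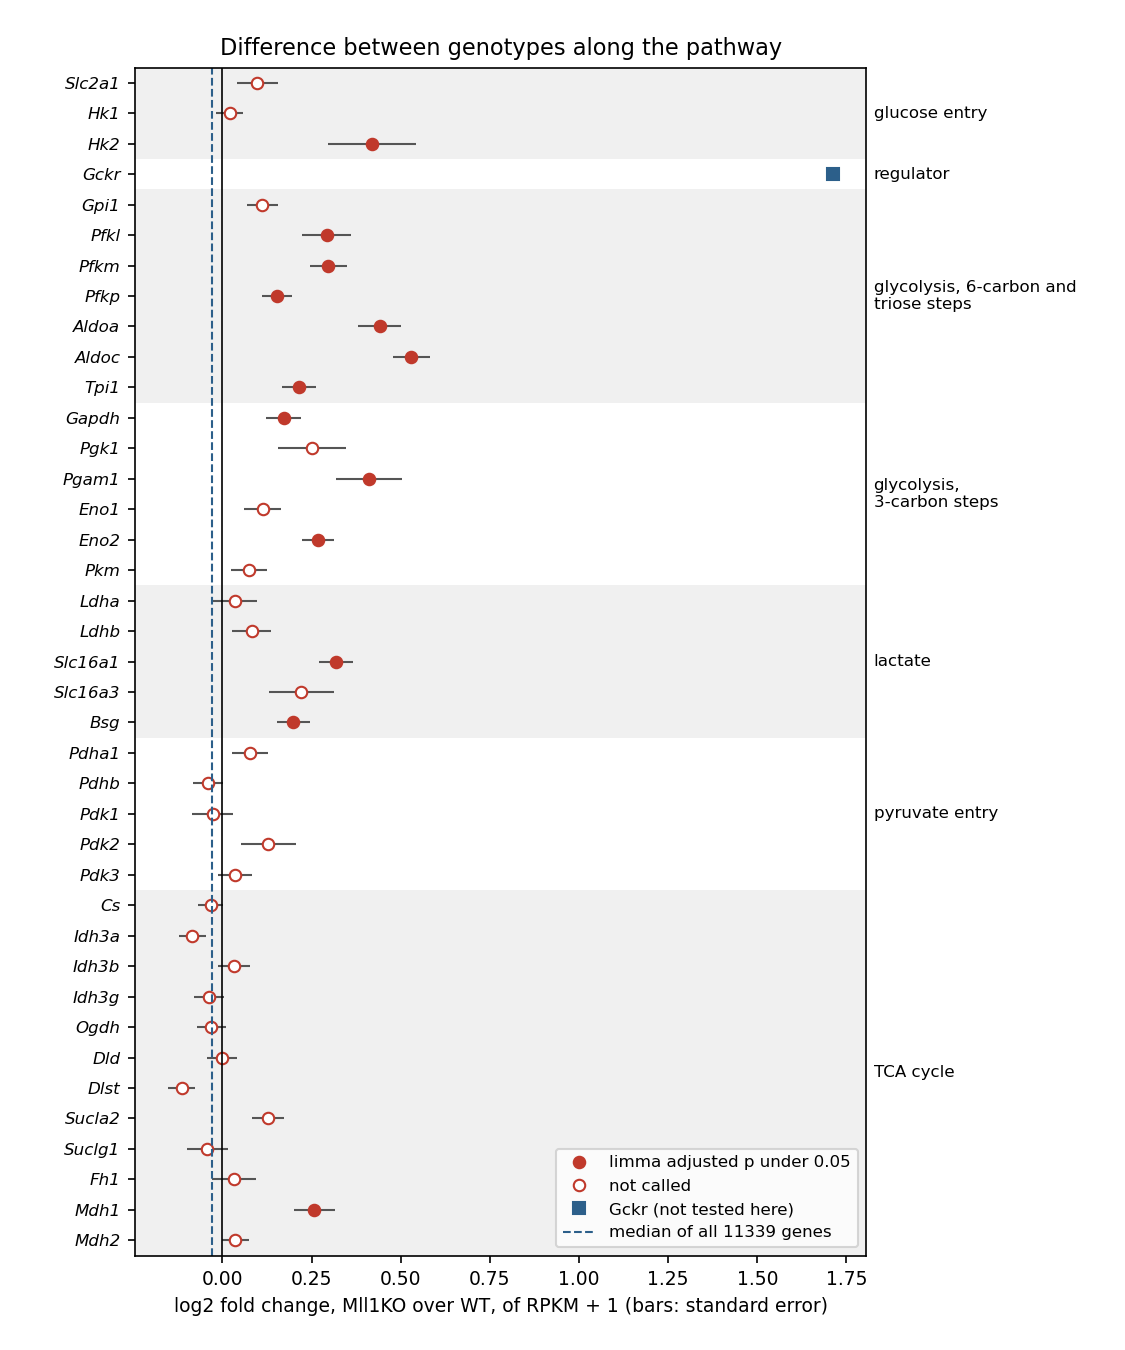
Log2 fold change of log2(RPKM + 1), *Mll1KO* minus WT, for each of the 39 genes, ordered by step, with bars for the standard error (n = 3 libraries per genotype), filled points for limma adjusted p under 0.05, open points for genes not called, a square for *Gckr*, which was not tested, and a dashed line at the median of all 11339 genes. All 21 glycolysis and lactate genes other than *Gckr* lie above 0, but with scaling to rod genes only *Hk2*, *Aldoa*, *Aldoc* and *Pgam1* of them do. Such scaling moves all genes nearly alike, and on either scale all 21 lie above the median of all genes.

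Glucose enters retinal cells through the transporter GLUT1, encoded by *Slc2a1*, and is trapped by phosphorylation through a hexokinase. *Slc2a1* stood at 103, 98.4 and 114 RPKM in WT and 115, 115 and 108 RPKM in *Mll1KO*. The groups overlapped, and the gene was not called. *Hk1*, the widely expressed hexokinase of neural tissue, was at 136, 133 and 138 RPKM in WT and 139, 139 and 135 RPKM in *Mll1KO*. These values overlapped as well, with a log2 fold change of 0.021 (SE 0.038). Of the 3 entry genes, *Slc2a1*, *Hk1* and *Hk2*, 1 was called higher, against 8.81% of all genes. The median log2 fold change of the 3, 0.098, became -0.23 with scaling to rod genes, 0.092 above the median of all genes on that scale. On the authors' scale the entry median was 0.051 without WT replicate b and 0.16 without WT replicate c.

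*Hk2*, the hexokinase that photoreceptors express, stood at 16.6, 18.5 and 21.9 RPKM in WT and 31.3, 23.9 and 22.3 RPKM in *Mll1KO*. All *Mll1KO* values lay above all WT values, narrowly so for *Mll1KO* replicate c against WT replicate c, and *Mll1KO* replicate a was well above the other 2 of its group. The log2 fold change was 0.42 (SE 0.12, limma adjusted p = 0.0344). The call ended when WT replicate a, WT replicate b or *Mll1KO* replicate a was left out, with log2 fold changes of 0.33, 0.40 and 0.28. It was also lost with replicate letter as a block, and with scaling to rod genes, at 0.11. *Hk2* supplied 10.9, 12.2 and 13.7% of the summed *Hk1* and *Hk2* RPKM in WT and 18.4, 14.7 and 14.2% in *Mll1KO*. These shares, which no scaling of libraries alters, did not overlap between the genotypes.

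*Gckr* (gene ENSMUSG00000059434, chr5:31297443-31327314 on the plus strand of GRCm38) encodes a protein best known from liver, where it restrains the phosphorylation of glucose. Its level was 11.5, 12.6 and 14.4 RPKM in WT and 47.6, 40.3 and 44.6 RPKM in *Mll1KO*. The lowest *Mll1KO* library was far above the highest WT library, and the spread within each group was small beside that gap. The means were 12.8 RPKM in WT and 44.2 RPKM in *Mll1KO*, a 3.45-fold ratio. The log2 fold change of 1.71 placed *Gckr* at rank 5 of 11339 genes counted from the largest increase, which is how it was selected. Scaling to rod genes left it at 1.40, which is 1.72 above the median of all genes on that scale.

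Upper glycolysis, from glucose 6-phosphate to the triose phosphates, held 6 of the 13 called genes. Of its 7 genes, 6 were called higher, against 8.81% of all genes. All 7 had groups without overlap in that direction, against 14.6% of all genes. Their median log2 fold change of 0.29 became -0.031 with scaling to rod genes, which is 0.29 above the median of all genes there. The summed level of the 7 genes was 1134, 1173 and 1262 RPKM in WT and 1553, 1492 and 1531 RPKM in *Mll1KO*, a ratio of 1.28. All *Mll1KO* sums lay above all WT sums, while with scaling to rod genes they overlapped, at a ratio of 1.02.

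*Gpi1* encodes the isomerase that makes fructose 6-phosphate, and it stood at 119, 113 and 121 RPKM in WT and 132, 125 and 124 RPKM in *Mll1KO*. The groups did not overlap, but the gene was not called (log2 fold change 0.11, SE 0.044, limma adjusted p = 0.0968). With TMM, RLE and upper-quartile scaling *Gpi1* was called higher, at log2 fold changes of 0.14, 0.15 and 0.15. All 7 genes of upper glycolysis were then called higher, against 11.1, 11.3 and 11.2% of all genes. With scaling to rod genes *Gpi1* was called lower, at -0.21. Phosphofructokinase catalyses the committed step of glycolysis and has a liver, a muscle and a platelet form. *Pfkl*, the liver form, was at 89.6, 101 and 105 RPKM in WT and 129, 111 and 122 RPKM in *Mll1KO*. Its groups did not overlap, with WT replicate a lowest of the 6 (log2 fold change 0.29, SE 0.069, limma adjusted p = 0.0138). Without *Mll1KO* replicate c its log2 fold change was 0.28 and the call was lost.

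*Pfkm*, the muscle form, stood at 54.8, 59.2 and 63.6 RPKM in WT and 71.8, 73.4 and 73.2 RPKM in *Mll1KO*. The *Mll1KO* libraries were close to each other and above all WT libraries (log2 fold change 0.30, SE 0.053, limma adjusted p = 0.0035). *Pfkp*, the platelet form, was at 69.1, 69.9 and 72.01 RPKM in WT and 81.8, 77.7 and 75.7 RPKM in *Mll1KO*. Here too the groups did not overlap, by a smaller margin (log2 fold change 0.15, SE 0.042, limma adjusted p = 0.0255). This call ended without WT replicate a, WT replicate b, *Mll1KO* replicate a or *Mll1KO* replicate b, where the log2 fold changes were 0.14, 0.15, 0.12 and 0.16, and it was lost with replicate letter as a block. *Pfkp* was called lower with scaling to rod genes, at -0.17. Of the summed phosphofructokinase RPKM, *Pfkp* made up 32.4, 30.3 and 29.9% in WT and 28.9, 29.6 and 27.9% in *Mll1KO*. Every *Mll1KO* share lay below every WT share, while the shares of *Pfkl* and *Pfkm* overlapped.

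Aldolase splits fructose 1,6-bisphosphate into triose phosphates. *Aldoa*, among the most abundant of the 39 transcripts, stood at 542, 578 and 620.3 RPKM in WT and 798, 759.8 and 801 RPKM in *Mll1KO*. The groups were widely separated (log2 fold change 0.44, SE 0.060, limma adjusted p = 0.00085). With scaling to rod genes *Aldoa* was not called, at 0.11. *Aldoc*, the aldolase of brain and retina, was at 119, 108 and 124 RPKM in WT and 170.0, 172 and 165 RPKM in *Mll1KO*. All *Mll1KO* values lay well above all WT values, and its log2 fold change of 0.53 was the largest of the 38 genes without *Gckr* (SE 0.052, limma adjusted p = 0.000141). With scaling to rod genes it was the 1 gene of the 38 still called higher. *Aldoc* made up 17.97, 15.8 and 16.7% of summed aldolase RPKM in WT and 17.6, 18.5 and 17.1% in *Mll1KO*. These shares overlapped.

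*Tpi1*, which encodes the enzyme that interconverts the triose phosphates, stood at 141, 143 and 157 RPKM in WT and 169, 173 and 169.7 RPKM in *Mll1KO*. The groups did not overlap, with WT replicate c the nearest to *Mll1KO* (log2 fold change 0.21, SE 0.047, limma adjusted p = 0.01).

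**Figure D2:**
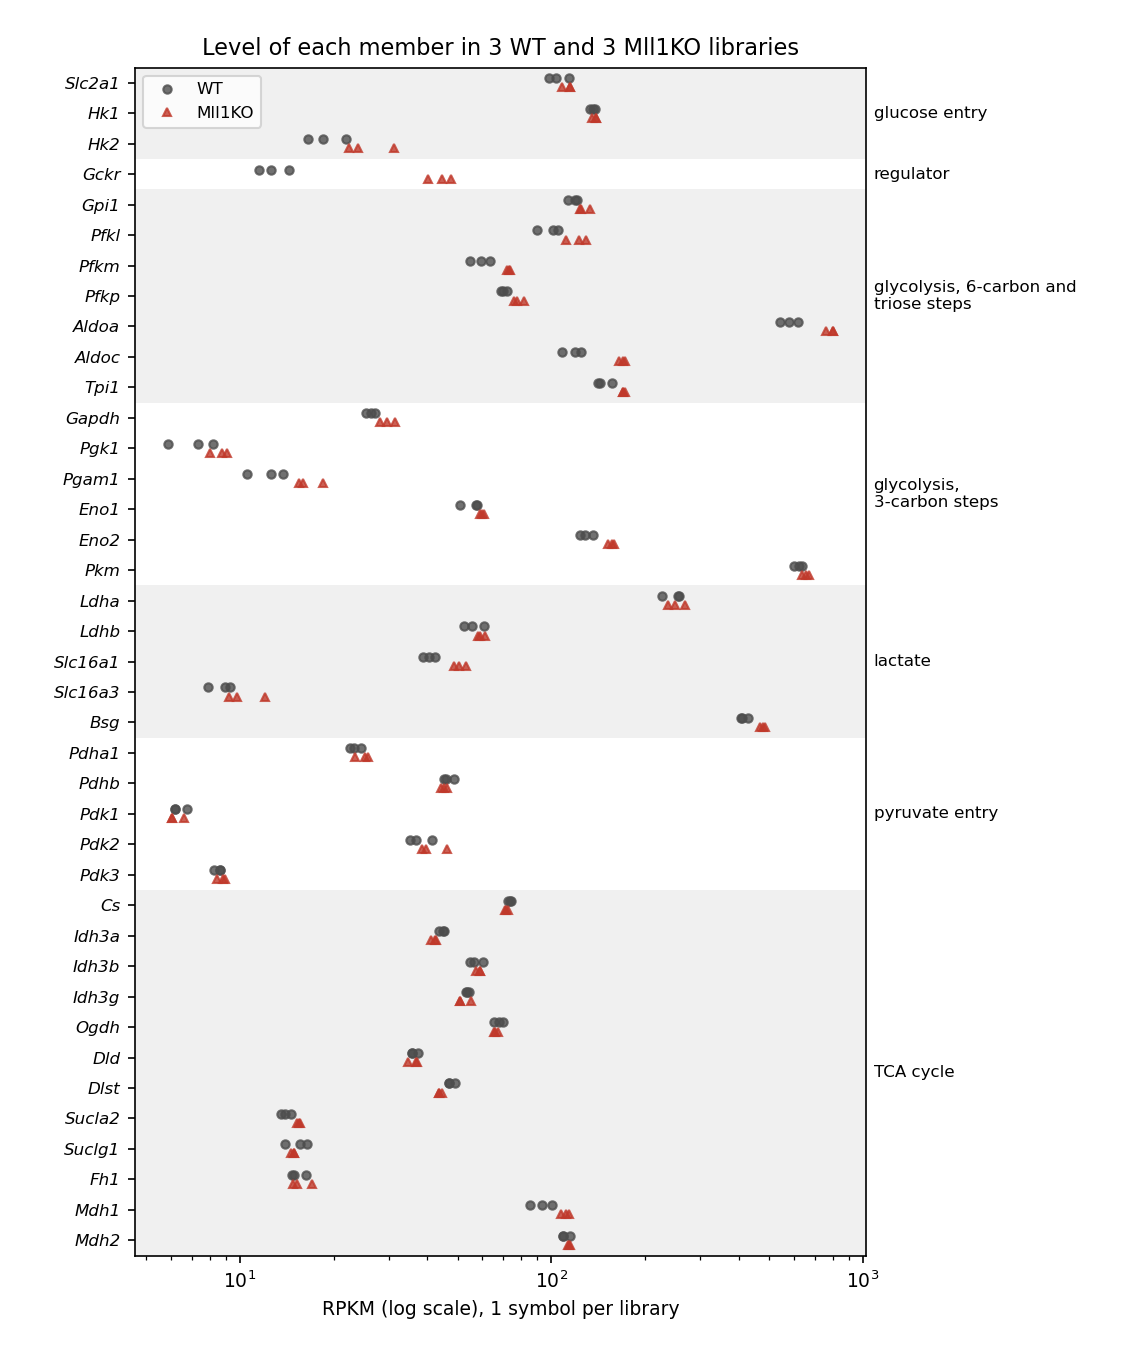
RPKM of each of the 39 genes on a logarithmic axis in the 3 WT libraries (grey circles) and the 3 *Mll1KO* libraries (red triangles), grouped by step. On the authors' scale all triangles lie to the right of all circles for 16 of the 38 genes without *Gckr*, against 14.6% of all genes. For *Gckr*, which was chosen by its increase, they do so as well. They lie to the left for *Idh3a* and *Dlst*, against 26.5% of all genes. Scaling to rod genes reverses the direction of most of the higher genes.

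Lower glycolysis runs from glyceraldehyde 3-phosphate to pyruvate and yields the ATP of the pathway. Of its 6 genes, 3 were called higher, against 8.81% of all genes. In that direction 4 had groups without overlap, against 14.6% of all genes. The median log2 fold change of the 6, 0.21, reversed to -0.10 with scaling to rod genes, 0.22 above the median of all genes on that scale. Several of these genes have many processed copies in the mouse genome. The share of 50-base stretches of the coding transcript that also occur in another gene's transcript was 82.5% for *Gapdh*, 72.2% for *Eno1*, 67.96% for *Pgk1* and 41.5% for *Pgam1*. With reads of 50 bases, and with the handling of reads that match several places not given, the levels of these 4 genes are uncertain, and so are the sums and shares that include them. Without these 4, the glycolysis and lactate list had 10 called higher of 17 and a median log2 fold change of 0.21.

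*Gapdh* encodes the dehydrogenase that makes NADH in glycolysis, and its reads gave 26.4, 25.4 and 27.1 RPKM in WT and 28.2, 31.5 and 29.6 RPKM in *Mll1KO*. The groups did not overlap (log2 fold change 0.17, SE 0.049, limma adjusted p = 0.0323). Its call ended without WT replicate a, WT replicate b, *Mll1KO* replicate b or *Mll1KO* replicate c, where the log2 fold changes were 0.17, 0.15, 0.13 and 0.17, and it was lost with replicate letter as a block. *Gapdh* was called lower with scaling to rod genes, at -0.14. *Pgk1*, the gene of the first ATP-making kinase, was at 5.89, 7.32 and 8.21 RPKM in WT and 9.08, 8.03 and 8.78 RPKM in *Mll1KO*. The groups overlapped, with WT replicate a far below the rest, and *Pgk1* was not called (log2 fold change 0.25, SE 0.10). Without WT replicate c *Pgk1* was called higher, at a log2 fold change of 0.35, and without WT replicate a its log2 fold change was 0.14.

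*Pgam1*, for the mutase that moves the phosphate of 3-phosphoglycerate, stood at 10.5, 12.6 and 13.7 RPKM in WT and 15.9, 15.4 and 18.5 RPKM in *Mll1KO*. The groups did not overlap (log2 fold change 0.41, SE 0.092, limma adjusted p = 0.0111). With scaling to rod genes *Pgam1* was not called, at 0.11. Enolase has a general and a neuronal form. *Eno1*, the general form, was at 50.96, 57.5 and 57.7 RPKM in WT and 60.8, 58.9 and 59.9 RPKM in *Mll1KO*. The groups were separated by a narrow margin, and *Eno1* was not called (log2 fold change 0.11, SE 0.051, limma adjusted p = 0.143). Without WT replicate a its log2 fold change was 0.054. *Eno2*, the neuronal form, stood at 124, 128 and 136 RPKM in WT and 158, 157 and 152 RPKM in *Mll1KO*. All *Mll1KO* values lay clearly above WT (log2 fold change 0.27, SE 0.045, limma adjusted p = 0.00263). *Eno2* made up 70.8, 69.03 and 70.2% of the *Eno1* and *Eno2* RPKM in WT and 72.3, 72.7 and 71.7% in *Mll1KO*. These shares did not overlap, although the level of *Eno1* within them is uncertain.

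*Pkm*, for the pyruvate kinase outside liver and red cells, was another of the most abundant transcripts, at 623, 599.99 and 639 RPKM in WT and 635, 669 and 657 RPKM in *Mll1KO*. The groups overlapped, and the gene was not called (log2 fold change 0.075, SE 0.050). The values cover both splice forms of *Pkm* together, because the table has a single level per gene.

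**Figure D3:**
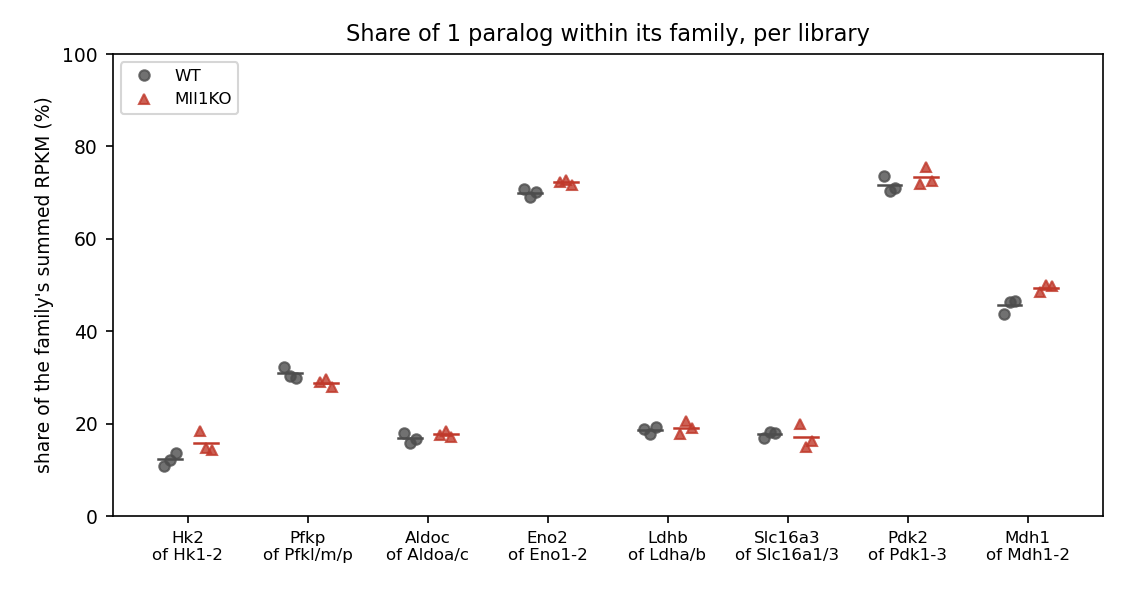
Percent of the summed RPKM of a gene family supplied by the named member, for *Hk2*, *Pfkp*, *Aldoc*, *Eno2*, *Ldhb*, *Slc16a3*, *Pdk2* and *Mdh1*, with a point per library (n = 3 per genotype) and a line at the mean. The shares of *Hk2*, *Eno2* and *Mdh1* lie higher in every *Mll1KO* library than in every WT library and that of *Pfkp* lies lower, no scaling of libraries alters a share, and the *Eno2* share is uncertain because many stretches of *Eno1* occur in other transcripts.

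Of the 5 lactate genes, 2 were called higher, against 8.81% of all genes. The median log2 fold change of the 5, 0.20, reversed to -0.13 with scaling to rod genes, 0.19 above the median of all genes on that scale. On the authors' scale this median was 0.12 without *Mll1KO* replicate a. The dehydrogenase subunits were not called. *Ldha*, the subunit that favours lactate formation, stood at 226, 256 and 255 RPKM in WT and 268, 237 and 249 RPKM in *Mll1KO*. The groups overlapped in part, with *Mll1KO* replicate a the highest and WT replicate a the lowest of the 6 (log2 fold change 0.035, SE 0.063). *Ldhb*, the subunit associated with lactate use, was at 52.4, 55.4 and 60.7 RPKM in WT and 58.1, 61.2 and 59.01 RPKM in *Mll1KO*. Its groups overlapped too, and *Ldhb* supplied 18.8, 17.8 and 19.2% of the summed subunit RPKM in WT and 17.8, 20.5 and 19.1% in *Mll1KO*. The balance of the subunits thus overlapped between genotypes.

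The lactate transporter genes called higher were *Slc16a1* and *Bsg*. *Slc16a1*, for the monocarboxylate transporter MCT1, stood at 38.6, 40.4 and 42.3 RPKM in WT and 48.5, 53.04 and 50.4 RPKM in *Mll1KO*. Every *Mll1KO* library lay well above every WT library (log2 fold change 0.32, SE 0.048, limma adjusted p = 0.00146). *Bsg*, for basigin, the partner protein that brings these transporters to the cell surface, was at 408, 405 and 428 RPKM in WT and 466, 483 and 476 RPKM in *Mll1KO*. The groups did not overlap (log2 fold change 0.20, SE 0.046, limma adjusted p = 0.0124), and the call was lost without WT replicate b or *Mll1KO* replicate c, at log2 fold changes of 0.18 and 0.20. *Bsg* was called lower with scaling to rod genes, at -0.13. *Slc16a3*, for MCT4, was at 7.90, 8.97 and 9.28 RPKM in WT and 12.05, 9.25 and 9.79 RPKM in *Mll1KO*. Replicate b of *Mll1KO* lay just below WT replicate c, and the gene was not called (log2 fold change 0.22, SE 0.091, limma adjusted p = 0.108).

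Of the 5 genes that govern pyruvate entry, limma called 0, against 8.81% of all genes called higher and 14.5% lower. At an unadjusted p under 0.05 there were 0, against 13.6% and 23.3%. Limma-voom called 0, against 9.53% and 16.1%. All 5 had overlapping groups, while 14.6% of all genes had groups without overlap in the higher direction and 26.5% in the lower. With scaling to rod genes all 5 were called lower, against 85.3% of all genes. Their median log2 fold change was 0.035, which reversed to -0.26 with scaling to rod genes, 0.060 above the median of all genes on that scale. Leaving out 1 library on the authors' scale put it between 0.017 (without WT replicate c) and 0.059 (without *Mll1KO* replicate a). *Pdha1* and *Pdhb* encode the subunits of the first enzyme of the pyruvate dehydrogenase complex. *Pdha1* stood at 23.3, 22.6 and 24.4 RPKM in WT and 23.4, 25.2 and 25.9 RPKM in *Mll1KO*, and its log2 fold change was 0.077 (SE 0.050). *Pdhb* stood at 45.1, 45.9 and 48.8 RPKM in WT and 46.4, 44.3 and 45.1 RPKM in *Mll1KO*, and its log2 fold change was -0.041 (SE 0.042). The kinases encoded by *Pdk1*, *Pdk2* and *Pdk3* phosphorylate this enzyme and switch it off. *Pdk2* was the most abundant of the kinases per length, at 41.4, 35.2 and 36.8 RPKM in WT and 38.5, 46.2 and 39.7 RPKM in *Mll1KO*, where replicate b was the highest. *Pdk1* was at 6.18, 6.20 and 6.77 RPKM in WT and 6.60, 6.06 and 6.07 RPKM in *Mll1KO*. *Pdk3* was at 8.65, 8.61 and 8.26 RPKM in WT and 8.43, 8.85 and 8.96 RPKM in *Mll1KO*. For each kinase gene some *Mll1KO* libraries lay within the WT range. The kinase shares overlapped between the genotypes, with *Pdk2* at 73.6, 70.4 and 70.99% of the summed kinase RPKM in WT and 71.9, 75.6 and 72.5% in *Mll1KO*.

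The TCA cycle oxidises acetyl groups to carbon dioxide and hands the electrons to the respiratory chain. Of its 12 genes, limma called 1 higher and 0 lower on the authors' scale, against 8.81% and 14.5% of all genes. At an unadjusted p under 0.05 there were 2 in each direction, against 13.6% higher and 23.3% lower. Limma-voom called 0 lower, against 16.1%. In each direction 2 had groups without overlap, against 14.6% higher and 26.5% lower. The median log2 fold change of the 12 was -0.017. With scaling to rod genes that median was -0.33, which is 0.017 below the median of all genes there, and 11 of the 12 were called lower, against 85.3% of all genes. Summed over the 12 genes, RPKM were 618, 623 and 646 in WT and 641, 642 and 642 in *Mll1KO*, a ratio of 1.02. The *Mll1KO* sums were within the WT range on the authors' scale. They lay above it with TMM, RLE and upper-quartile scaling (ratios of 1.04, 1.05 and 1.04) and below it with scaling to rod genes (0.813).

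The called TCA cycle gene was *Mdh1*, which encodes the cytosolic malate dehydrogenase, an enzyme of the malate-aspartate shuttle that carries glycolytic electrons towards mitochondria. It stood at 85.2, 93.4 and 100.38 RPKM in WT and 108, 114 and 112 RPKM in *Mll1KO*. All *Mll1KO* libraries lay above all WT libraries, with WT replicate a the lowest (log2 fold change 0.26, SE 0.058, limma adjusted p = 0.0112). *Mdh2*, for the mitochondrial enzyme that closes the cycle, was at 109, 109 and 115 RPKM in WT and 114, 114 and 113 RPKM in *Mll1KO*. The groups overlapped (log2 fold change 0.036, SE 0.039). Within the pair, *Mdh1* supplied 43.8, 46.2 and 46.6% in WT and 48.4, 50.01 and 49.8% in *Mll1KO*, and these shares did not overlap. On the authors' scale and without *Mdh1*, the other 16 pyruvate entry and TCA cycle genes had 0 calls by limma in either direction (*Sucla2* was called higher with TMM, RLE and upper-quartile scaling), 1 higher and 2 lower at an unadjusted p under 0.05, 0 calls by limma-voom and a median log2 fold change of -0.015. Over all genes, limma called 8.81% higher and 14.5% lower, and limma-voom 9.53% and 16.1%. The unadjusted p was under 0.05 for 13.6% in the higher and 23.3% in the lower direction. All 16 were called lower with scaling to rod genes, against 85.3% of all genes.

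Among the other TCA cycle genes, *Dlst*, *Idh3a* and *Sucla2* had groups without overlap but were not called on the authors' scale. *Dlst*, for the middle enzyme of the oxoglutarate dehydrogenase complex, stood at 47.02, 46.9 and 48.9 RPKM in WT and 44.5, 43.6 and 43.4 RPKM in *Mll1KO*. The *Mll1KO* values were all lower (log2 fold change -0.11, SE 0.037, limma adjusted p = 0.051). *Idh3a*, for the catalytic subunit of the NAD-dependent isocitrate dehydrogenase, was at 45.3, 43.5 and 44.9 RPKM in WT and 41.2, 42.1 and 42.6 RPKM in *Mll1KO*. These were all lower as well (log2 fold change -0.084, SE 0.037, limma adjusted p = 0.133). *Sucla2*, for a subunit of succinyl-CoA synthetase, was at 13.6, 13.998 and 14.5 RPKM in WT and 15.2, 15.5 and 15.5 RPKM in *Mll1KO*. Its *Mll1KO* values were all higher (log2 fold change 0.13, SE 0.044, limma adjusted p = 0.0616). With TMM, RLE and upper-quartile scaling *Sucla2* was called higher, at a log2 fold change of 0.16 under each, while with scaling to rod genes it was called lower, at -0.18.

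The remaining 7 TCA cycle genes besides *Mdh2* had overlapping groups and were not called on the authors' scale, while all 7 were called lower with scaling to rod genes, as were 85.3% of all genes. *Cs*, for citrate synthase, the enzyme that starts the cycle, stood at 74.04, 73.8 and 72.3 RPKM in WT and 70.95, 72.6 and 71.5 RPKM in *Mll1KO*. *Ogdh*, for the first enzyme of the oxoglutarate dehydrogenase complex, was at 69.97, 65.4 and 67.8 RPKM in WT and 67.5, 65.97 and 65.2 RPKM in *Mll1KO*. Both log2 fold changes were near 0, at -0.033 (SE 0.035) for *Cs* and -0.031 (SE 0.040) for *Ogdh*. *Idh3b* and *Idh3g*, for the other subunits of isocitrate dehydrogenase, had log2 fold changes of 0.031 and -0.039. *Dld*, for a subunit shared by the pyruvate and oxoglutarate dehydrogenase complexes, was at -0.0022. *Suclg1*, for the other succinyl-CoA synthetase subunit in the list, was at -0.042, and *Fh1*, for fumarate hydratase, was at 0.032.

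Summed over the 21 glycolysis and lactate genes, the 4 uncertain ones included, RPKM were 2962, 3019.6 and 3214 in WT and 3599, 3553 and 3566 in *Mll1KO*. The *Mll1KO* sums were close to each other and above all WT sums, with a ratio of means of 1.17. Scaling to rod genes turned this to 0.929, with WT replicate a between the *Mll1KO* values. For the 17 pyruvate entry and TCA cycle genes the sums were 743, 742 and 771 RPKM in WT and 764, 773 and 767 RPKM in *Mll1KO*. Here the groups overlapped on the authors' scale, with a ratio of 1.02. With TMM, RLE and upper-quartile scaling the *Mll1KO* sums were all higher (ratios of 1.05, 1.05 and 1.05), and with scaling to rod genes they were all lower (0.814). Within WT, replicate c was the highest of the 3 for 31 of the 39 genes, compared with 39.01% of all genes. Replicate a was the lowest of the 3 for 22 of the 39, compared with 44.3% of all genes. In both sums, too, WT replicate c was the highest of WT.

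Of the 13 genes called higher, 8 were called whichever single library was left out, namely *Pfkm*, *Aldoa*, *Aldoc*, *Tpi1*, *Pgam1*, *Eno2*, *Slc16a1* and *Mdh1*. The other 5 calls depended on at least 1 library, as given for *Hk2*, *Pfkl*, *Pfkp*, *Gapdh* and *Bsg*. Beyond the 4 uncertain genes of lower glycolysis, stretches shared with other transcripts made up 34.4% of *Pkm*, 30.3% of *Pdhb*, 27.01% of *Ldhb* and 25.3% of *Gpi1*. They made up 17.1% of *Ldha*, 17.1% of *Pfkp*, 16.9% of *Pdha1* and 13.9% of *Aldoa*. Of the 39 genes, 22 had no shared stretch.

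Position was examined as a feature that the choice of genes did not use. The members are spread over the genome, and the only members closer to each other than 1 Mb lie on chromosome 6, where *Tpi1* and *Eno2* are 40.9 kb apart and *Gapdh* lies 347 kb from *Tpi1*. On the authors' scale all 3 were called higher, against 8.81% of all genes, and all 3 fall below 0 with scaling to rod genes. The level of *Gapdh* is uncertain, with 82.5% of its stretches shared, and its call ended in 4 of the 6 fits that left out 1 library. Nothing is read from this count about position.

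Upstream sequence was examined because most glycolysis genes moved the same way on the authors' scale. RefSeq promoter entries on build GRCm38.p6 matched 37 of the 39 genes, and the 250 bases before each RefSeq start were searched on both strands for TAATCC, a sequence bound by the photoreceptor factor CRX, and for ACGTG, the core of sites bound by HIF and by many basic helix-loop-helix factors. ACGTG occurred in 16 of the 37 genes (43.2%), compared with 16.6% of all 32851 windows and 18.5% of all 27025 genes. CACGTG, which contains ACGTG, occurred in 5 of the 37 (13.5%), compared with 6.02% of all windows and 6.86% of all genes. TAATCC occurred in 6 of the 37 (16.2%), compared with 6.25% of all windows and 7.21% of all genes. These shares were not tested, and a match is a description of letters, not a binding site.

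Windows before RefSeq starts are printed for *Gckr* and for the 4 other members with the largest log2 fold changes, 5′ to 3′ on the gene's own strand. They are from RefSeq, build GRCm38.p6, at chr5:31297313-31297562 (plus) for *Gckr*, chr11:78322823-78323072 (plus) for *Aldoc*, chr7:126799255-126799504 (minus) for *Aldoa*, chr6:82774455-82774704 (minus) for *Hk2* and chr19:41911621-41911870 (plus) for *Pgam1*. Capitals mark TAATCC or ACGTG on either strand, where CACGT is ACGTG read on the other strand. The *Gckr* window holds neither, that of *Aldoc* holds 1 TAATCC, that of *Hk2* holds 2 ACGTG, and those of *Aldoa* and *Pgam1* hold 1 ACGTG each. Gene coordinates are from GENCODE and the windows from RefSeq starts, so 120 bases of the *Gckr* window, 105 of the *Aldoc* window and all 250 of the *Aldoa* window lie inside the GENCODE gene. *Aldoc* and *Aldoa* have several RefSeq starts with a window each, and for both a window with a match is shown although another window of the gene holds none.
Gckr: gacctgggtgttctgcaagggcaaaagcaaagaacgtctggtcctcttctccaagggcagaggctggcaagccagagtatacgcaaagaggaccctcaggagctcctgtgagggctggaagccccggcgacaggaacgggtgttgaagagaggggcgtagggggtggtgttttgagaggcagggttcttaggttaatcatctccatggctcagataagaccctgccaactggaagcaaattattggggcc
Aldoc: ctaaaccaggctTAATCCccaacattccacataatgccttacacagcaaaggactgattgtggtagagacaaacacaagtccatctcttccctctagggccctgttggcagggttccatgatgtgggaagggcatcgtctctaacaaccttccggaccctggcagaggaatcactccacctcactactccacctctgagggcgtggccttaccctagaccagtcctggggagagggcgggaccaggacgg
Aldoa: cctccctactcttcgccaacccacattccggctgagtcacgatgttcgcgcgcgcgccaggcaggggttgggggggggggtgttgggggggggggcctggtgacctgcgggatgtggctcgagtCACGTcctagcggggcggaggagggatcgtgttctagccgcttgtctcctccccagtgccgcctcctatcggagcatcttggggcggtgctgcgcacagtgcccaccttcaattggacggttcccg
Hk2: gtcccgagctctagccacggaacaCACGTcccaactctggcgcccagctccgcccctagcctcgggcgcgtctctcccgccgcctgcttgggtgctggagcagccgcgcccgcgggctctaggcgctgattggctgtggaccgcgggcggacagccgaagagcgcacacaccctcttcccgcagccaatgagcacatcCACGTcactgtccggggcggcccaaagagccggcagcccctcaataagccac
Pgam1: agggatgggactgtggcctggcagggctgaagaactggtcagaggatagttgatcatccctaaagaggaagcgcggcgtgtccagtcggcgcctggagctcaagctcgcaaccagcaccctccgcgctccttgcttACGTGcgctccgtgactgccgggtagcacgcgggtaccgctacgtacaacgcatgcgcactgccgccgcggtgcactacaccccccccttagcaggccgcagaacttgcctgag

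Of 92 further genes of glucose metabolism, 70 were in the table, 7 were called higher, 7 lower and 56 not called, with a median log2 fold change of -0.0065. Over all genes 8.81% were called higher and 14.5% lower, and nothing is read from the counts of the 70. The number called higher was 4 without *Mll1KO* replicate b and 11 without WT replicate c. It was 12, 13 and 12 with TMM, RLE and upper-quartile scaling, while scaling to rod genes gave 1 higher and 57 lower, against 1.78% and 85.3% of all genes. Those called higher include the genes of glycogen breakdown. *Pygm*, for the muscle form of glycogen phosphorylase, was at 36.8, 37.1 and 36.2 RPKM in WT and 48.5, 49.8 and 49.7 RPKM in *Mll1KO*. All *Mll1KO* values were above all WT values (log2 fold change 0.42, SE 0.036, limma adjusted p = 6.96e-05), and with scaling to rod genes *Pygm* was not called, at 0.098. *Pygl* and *Pygb*, the liver and brain forms, were called higher too, with log2 fold changes of 0.48 and 0.25, and scaling to rod genes reversed *Pygb* to -0.062. The others called higher were *Me1* (cytosolic malic enzyme, 0.28), *Pck2* (mitochondrial phosphoenolpyruvate carboxykinase, 0.23), *Ogdhl* (an oxoglutarate dehydrogenase paralog, 0.21) and *Slc25a12* (an aspartate-glutamate carrier of the malate-aspartate shuttle, 0.20), and all 4 were below 0 with scaling to rod genes. Leaving out 1 library ended 3 of these calls. That of *Pck2* ended without WT replicate a or *Mll1KO* replicate b (log2 fold changes of 0.19 and 0.21). That of *Ogdhl* ended without *Mll1KO* replicate a, b or c (0.20, 0.20 and 0.22), and it held without WT replicate a at 0.13. That of *Slc25a12* ended without WT replicate b, *Mll1KO* replicate b or *Mll1KO* replicate c (0.19, 0.16 and 0.20).

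On the lower side, *Hkdc1*, a further hexokinase family gene, stood at 5.79, 5.98 and 5.52 RPKM in WT and 3.35, 3.14 and 3.15 RPKM in *Mll1KO*. All *Mll1KO* values were below all WT values (log2 fold change -0.68, SE 0.054, limma adjusted p = 4.14e-05). *Pgm2* (gene ENSMUSG00000025791), a phosphoglucomutase gene, was at 26.9, 29.5 and 27.4 RPKM in WT and 18.1, 17.5 and 16.8 RPKM in *Mll1KO*. Its groups were just as clearly separated (log2 fold change -0.65, SE 0.049, limma adjusted p = 3.37e-05). *Pfkfb3*, for an enzyme that makes fructose 2,6-bisphosphate, an activator of phosphofructokinase, was at 5.01, 4.87 and 4.82 RPKM in WT and 3.89, 2.64 and 3.52 RPKM in *Mll1KO*. The groups did not overlap, with *Mll1KO* replicate b the lowest (log2 fold change -0.45, SE 0.10, limma adjusted p = 0.00853). The other 4 called lower were *Pgm1* (gene ENSMUSG00000029171, also a phosphoglucomutase, -0.36), *Pgls* (pentose phosphate pathway, -0.26), *Gyg* (glycogenin, -0.23) and *Idh2* (mitochondrial NADP-dependent isocitrate dehydrogenase, -0.22). The *Idh2* call was lost with TMM, RLE and upper-quartile scaling, at a log2 fold change of -0.19 under each. It was also lost without WT replicate a or c (-0.20 and -0.18) and without *Mll1KO* replicate a, b or c (-0.19, -0.23 and -0.23).

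Cell type markers also differed between the genotypes, and over all genes 8.81% were called higher and 14.5% lower. Of the 12 rod genes, 9 were called higher and 1 lower, and their summed RPKM had a ratio of *Mll1KO* to WT of 1.25, which scaling to rod genes sets to 1. The 8 cone genes, with *Opn1mw* the most abundant, had 6 called higher and 1 lower and summed to 343, 358 and 374 RPKM in WT and 412, 429 and 449 RPKM in *Mll1KO*, a higher sum whose ratio turns to 0.957 with scaling to rod genes. The 9 Müller glia genes, with *Glul* the most abundant, had 6 called higher and summed to 1327, 1304 and 1449.8 RPKM in WT and 1752, 1834 and 1795 RPKM in *Mll1KO*, a ratio of 1.32, or 1.05 with scaling to rod genes. The other 3, *Rlbp1*, *Slc1a3* and *Sox9*, were not called, at log2 fold changes of 0.094, -0.077 and -0.12. On the authors' scale the rod, cone and Müller glia sums of every *Mll1KO* library lay above those of every WT library. All 3 listed astrocyte genes were called higher, with *Gfap* the most abundant at 3.81, 4.40 and 4.16 RPKM in WT and 10.2, 8.50 and 8.42 RPKM in *Mll1KO*, and *Pax2* not listed. Bulk RNA does not show which cells carried these transcripts.

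Bipolar, horizontal and ganglion cell markers were lower in sum under each scaling tried. Of the 8 bipolar genes, 5 were called lower, and the sums were 457, 444 and 432 RPKM in WT and 358, 358 and 365 RPKM in *Mll1KO*. The 6 listed horizontal cell genes, led by *Sept4* and without *Lhx1*, had 5 called lower and sums of 119, 121 and 117 RPKM in WT and 85.02, 86.97 and 90.9 RPKM in *Mll1KO*. Of the 8 ganglion cell genes, led by *Sncg*, 7 were called lower, with sums of 529, 489.6 and 516 RPKM in WT and 414, 367 and 338 RPKM in *Mll1KO*. For none of these 3 lists did the sums overlap. Amacrine genes, led by *Slc32a1*, went in no single direction on the authors' scale, with 2 of 8 called higher, 4 called lower, overlapping sums and a ratio of 0.982 that is 0.784 with scaling to rod genes. *Slc32a1* itself was not called on the authors' scale (log2 fold change 0.16), was called higher with TMM, RLE and upper-quartile scaling (0.19 under each), by limma-voom (0.16), with replicate letter as a block (0.16) and without *Mll1KO* replicate b (0.20), and was called lower with scaling to rod genes (-0.16). The part of these cell type differences in the glucose genes was not tested.

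Of the marker lists for cells other than retinal neurons and macroglia, the 6 endothelial genes, led by *Kdr*, had 1 called higher and 2 lower and summed to 84.2, 82.5 and 80.4 RPKM in WT and 66.4, 59.7 and 60.3 RPKM in *Mll1KO*. These sums did not overlap, and *Kdr* had the largest part in them, with means of 37.6 RPKM in WT and 22.3 RPKM in *Mll1KO*. *Kdr* and *Cldn5* were the genes called lower, and *Flt1* was called higher, at a log2 fold change of 0.32. *Pecam1*, *Cdh5* and *Tek* were not called, at -0.17, -0.20 and 0.16, so the list went in no single direction. The 4 listed pigment epithelium genes, led by *Ttr*, summed to 114, 85.3 and 150.1 RPKM in WT and 80.2, 147 and 81.5 RPKM in *Mll1KO*. The 2 listed microglia genes, led by *Csf1r* and without *Aif1*, *P2ry12* and *C1qa*, had a ratio of 1.04. Of the lens genes only *Cryaa* was listed, at 6.54, 6.61 and 7.51 RPKM in WT and 32.1, 12.4 and 7.28 RPKM in *Mll1KO*. These 3 lists overlapped between the genotypes, with *Mll1KO* replicate a standing apart for *Cryaa*. The 3 listed red blood cell genes, led by *Hbb-bs* and without *Alas2*, summed to 82.2, 67.5 and 173 RPKM in WT and 111, 151 and 180.1 RPKM in *Mll1KO*, and overlapped too. Leaving out 1 library gave calls for single genes of these lists, *Ttr* lower without *Mll1KO* replicate b (log2 fold change -0.54), *Cryaa* higher without *Mll1KO* replicate c (1.42) and *Hbb-bs* higher without WT replicate c (0.97). The part of these cells in the results was not tested.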

How the data were processed

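RNA from 3 *Mll1KO* and 3 WT mouse retina samples at P14 was sequenced in single 50-base reads. The authors aligned reads with STAR 2.0.4b to mm10, counted them per gene with featureCounts 1.45 (Subread) and deposited 1 value per gene and library in RPKM, reads scaled to gene length in kilobases and to the library total, after removing genes without CPM above 5 in at least 5 samples. The table also holds the authors' log fold change, mean log CPM, P-value and FDR from edgeR, which were not used. Its 11404 lines hold 11339 gene identifiers, 59 of them in several identical lines that were merged, and 18 gene symbols turned into dates were restored. Whole read numbers fitted the values of all 11339 genes (tolerance 0.05 reads), which gave the library totals, from 17961097 to 23836033 reads; no gene had fewer than 90 reads in a library.

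Genotypes were compared with limma 3.58.1 (trend) in R 4.3.3 on log2(RPKM + 1) with genotype as the only term, Benjamini-Hochberg adjustment over all 11339 genes and a threshold of 0.05; the fit was checked on simulated data. Tables and figures were made with Python 3.11.15, numpy 2.4.6, pandas 2.3.3 and matplotlib 3.10.9. The members and lists were chosen with earlier results of these data known. Named genes are all 39 members, *Kmt2a*, the most abundant gene of each marker list and, of the other genes of glucose metabolism, up to 8 per direction with the largest changes among those called. Shared stretches are 50-base runs of a gene's principal coding transcript found in transcripts of other genes in GENCODE vM21. The 15 alternatives were pseudocounts of 0.1 and 5, TMM, RLE, upper-quartile and rod-gene scaling, limma-voom on recovered reads, a filter on mean RPKM under 1, replicate letter as a block, and leaving out each of the 6 libraries.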

Additional observations from a re-analysis of the deposited data

How the results depend on the processing

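Each of the 15 alternatives was run. Of the counts and medians under them, 191 stayed within 1.5 times the reported count or within the spread between replicates and the others moved further. Of the 135 medians among them, 15 changed sign, 6 with scaling to rod genes, 6 with TMM, RLE or upper-quartile scaling and 3 on leaving out WT replicate b, WT replicate c or *Mll1KO* replicate a (pyruvate entry and TCA cycle, 0.0059, 0.0097 and 0.024). Of the log2 fold changes of single genes, 883 kept their direction and their side of the threshold, 43 lost the call, 26 gained one, 51 changed sign and 2 without a test moved. Limma-voom, both pseudocounts and the filter moved no count of calls by over 1.5 times. The cause of these differences was not tested.

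Scaling to rod genes gave 202 genes called higher and 9672 lower over the table (1.78% and 85.3%), 1 and 26 of the 38 members, and 1 and 57 of the other genes of glucose metabolism. Medians became -0.23 (entry), 1.40 (*Gckr*), -0.031 (upper glycolysis), -0.10 (lower glycolysis), -0.13 (lactate), -0.26 (pyruvate entry), -0.33 (TCA cycle), -0.11 (glycolysis and lactate) and -0.31 (pyruvate entry and TCA cycle). Log2 fold changes that reversed were *Slc2a1* -0.23, *Hk1* -0.30, *Gpi1* -0.21, *Pfkl* -0.031, *Pfkm* -0.025, *Pfkp* -0.17, *Tpi1* -0.11, *Gapdh* -0.14, *Pgk1* -0.038, *Eno1* -0.21, *Eno2* -0.057, *Pkm* -0.25, *Ldha* -0.29, *Ldhb* -0.24, *Slc16a1* -0.00099, *Slc16a3* -0.075 and *Bsg* -0.13. So did *Pdha1* -0.24, *Pdk2* -0.19, *Pdk3* -0.26, *Idh3b* -0.29, *Sucla2* -0.18, *Fh1* -0.27, *Mdh1* -0.066, *Mdh2* -0.29, *Slc25a12* -0.11, *Ogdhl* -0.11, *Pck2* -0.053, *Pygb* -0.062, *Me1* -0.030, *Slc32a1* -0.16 and *Csf1r* -0.24.

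TMM, RLE and upper-quartile scaling called 12, 13 and 12 of the other genes of glucose metabolism higher. The TCA cycle median became 0.015, 0.018 and 0.017, and that of pyruvate entry and the TCA cycle 0.029, 0.032 and 0.031. The pyruvate entry median was 0.067 with RLE and 0.066 with upper-quartile scaling. In the same order, *Pdk1* reversed to 0.00076, 0.0029 and 0.0024, *Ogdh* to 0.0011, 0.0035 and 0.0031, and *Dld* to 0.029, 0.032 and 0.031, while *Cs* reversed to 0.0017 with RLE and 0.0012 with upper-quartile scaling. With a pseudocount of 5 *Gckr* was at 1.47.

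With the replicate block, 895 genes were called higher and 1347 lower, and 10 of the 38 members were called, as *Hk2*, *Pfkp* and *Gapdh* lost the call. The letters name libraries and are not known to pair them.

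Leaving out 1 library gave 674 to 977 genes called higher and 1030 (without WT replicate b) to 1559 lower, with 1053 without *Mll1KO* replicate c. Of the other genes of glucose metabolism, 4 (without *Mll1KO* replicate b) to 11 (without WT replicate c) were called higher. Medians ranged from 0.051 to 0.16 (entry), 0.23 to 0.34 (upper glycolysis), 0.12 to 0.22 (lactate), 0.017 to 0.059 (pyruvate entry) and -0.014 to 0.024 (pyruvate entry and TCA cycle). Single genes that changed sign ranged from -0.024 to 0.077 (*Ldha*), -0.063 to 0.0097 (*Pdk1*), -0.020 to 0.027 (*Dld*), -0.10 to 0.0079 (*Suclg1*), -0.027 to 0.076 (*Fh1*) and -0.037 to 0.057 (*Csf1r*).

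With 3 libraries per genotype, a gene that was not called is not shown to be the same in both. RPKM do not show whether total RNA per retina differed, the table holds no gene under the authors' filter, and 12 of the 39 members share over 10% of their stretches with other transcripts.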
